A study of Mus musculus with 12 samples.

Results

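The 31 genes described here encode the enzymes and carriers that bring carbon into the tricarboxylic acid (TCA) cycle, turn it there and draw it off again. They comprise the mitochondrial pyruvate carrier, the pyruvate, 2-oxoglutarate and branched-chain 2-oxoacid dehydrogenase complexes, most enzymes of the cycle, and the malate, aspartate and glutamate enzymes around it. Members were chosen by gene name alone: a row belonged to the set when its Ensembl gene identifier mapped to one of the 31 symbols. All 31 were found among the 32199 genes of the table for the PAD4 set and among the 31719 genes of the table for the IL-33 set. All 31 also had a mean of at least 0.5 FPKM (fragments counted on a transcript, corrected for its length and for the size of the library) over the 6 libraries of each table, the minimum for testing. The label of the set holds with a qualification, since Idh1, Mdh1 and Got1 encode the cytosolic isozymes of mitochondrial enzymes.

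The values come from kidney tissue of 12 male mice aged 8 weeks, with 3 biological replicates in each of 4 groups. The PAD4 set held wild-type C57BL/6 mice and Pad4 knockout mice (gene Padi4), labelled batch 1. The IL-33 set held other wild-type C57BL/6 mice and Il33 knockout mice, labelled batch 2. All animals had undergone removal of a kidney, with 3 weeks of recovery. Each was then deprived of water for 24 h, was given furosemide, a loop diuretic, 20 min before the iodinated contrast medium iodixanol, and gave its kidney tissue 24 h after the contrast. No group without the contrast injury was analysed here, so every value below is a value in injured kidney. The labels do not say which cells or exons the deletions reach or on which substrain the knockouts were bred. The study set out to relate PAD4-dependent neutrophil extracellular traps and IL-33 to ferroptosis, a death of cells through iron-driven lipid oxidation, and to tubular damage.

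As background, pyruvate enters mitochondria through a carrier, is turned into acetyl-CoA by the pyruvate dehydrogenase complex or into oxaloacetate by pyruvate carboxylase, and is oxidised in the cycle with the release of electrons for respiration. The 2-oxoacid dehydrogenase complexes share a plan: a decarboxylating E1, a lipoyl-bearing E2 core, and the common E3 subunit dihydrolipoamide dehydrogenase. In the pyruvate and branched-chain complexes E1 is made of alpha and beta subunits. In kidney the proximal tubule depends on mitochondrial oxidation for solute transport, and it makes glucose and ammonia from glutamine, a route that passes through glutamate dehydrogenase and the malate enzymes.

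The libraries of the PAD4 set had FPKM totals of 700601 to 812981 and those of the IL-33 set 385124 to 420279, of which mitochondrially encoded transcripts made up 52.03% to 59.97% and 24.1% to 29.2%. Between 10205 and 12657 genes reached 1 FPKM in a library. No level was tested across the tables, whose FPKM totals differ, and sequencing depth is unknown from FPKM. Padi4 had 0.704, 1.06 and 1.67 FPKM in wild type as against 0.217, 0.497 and 0.187 FPKM in the PAD4 knockout, with no overlap (adjusted p = 0.0147). Transcript thus remained in all 3 knockout libraries, most in replicate 2. Neutrophils are a main source of Padi4, and summed FPKM of 7 neutrophil markers was 50.6, 165 and 48.9 against 11.2, 55.5 and 9.57 in the same libraries, with 4 of 6 tested lower. The part of neutrophil content in the fall of Padi4 was not tested. Il33 had 1.71, 1.13 and 3.64 FPKM in the wild type of its set as against 1.14, 0.616 and 1.02 FPKM in the libraries labelled Il33 knockout, with overlap (adjusted p = 0.0990), so these are called the labelled IL-33 knockout. Il33 fell in the PAD4 knockout as well, from 3.57, 5.29 and 3.28 FPKM to 0.889, 1.58 and 1.28 FPKM (-1.15 ± 0.23, adjusted p = 0.00208), without overlap.

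Markers of kidney tubule were present in all libraries, but the PAD4 set also held transcripts that mark other tissues. Summed FPKM of 8 lung epithelium markers was 285, 827 and 481 in the wild type of the PAD4 set and 58.7, 206 and 41.0 in the PAD4 knockout. For the IL-33 set, where 3 of these 8 markers have a row, that sum stayed between 0.0262 and 0.267 in all 6 libraries. Summed FPKM of 15 colon epithelium markers was 492, 634 and 750 in the wild type of the PAD4 set and 171, 290 and 180 in its knockout. For the IL-33 set, where 12 of these 15 have a row, that sum was 429, 162 and 325 in wild type as against 60.4, 64.7 and 61.2 in the labelled knockout. Within the PAD4 knockout, replicate 2 had the highest sums on both of these lists and on the smooth muscle, fibroblast, macrophage and neutrophil lists. These values move with the groups compared below, and their part in the results was not tested. In bulk tissue, fewer cells of a type and less RNA per cell cannot be told apart.

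In the PAD4 knockout, a small group of the members stood far above wild type while most of the 31 did not pass the test. Mdh1, Bckdha, Mdh2, Pdha1, Idh2 and Glud1 rose by between 4.06-fold and 18.5-fold in mean FPKM, and Me2 fell. Thus 6 of 31 members were higher and 1 was lower by limma at an adjusted p under 0.05, and 24 did not pass. Over all 13986 genes tested, 8.89% were higher and 8.79% were lower, 17.7% in all. The median change of the members was 0.52 on the log2(FPKM + 1) scale, against 0.016 over all genes tested. Fitted changes were positive in 28 of 31 members and in 51.6% of all genes tested. All 3 knockout libraries lay above all 3 wild-type libraries in 10 members and below them in 2, where 17.2% and 15.8% of all genes tested did so.

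Changes in the labelled IL-33 knockout were more numerous and smaller. Of the 31 members, 18 were higher and 4 were lower, and 9 did not pass. Over all 14513 genes tested, 22.2% were higher and 16.8% were lower, 39.1% in all. The members' median change was 0.42, against 0.044 over all genes. Fitted changes were positive in 27 members and in 53.9% of all genes tested. The members that fell were Glud1, Fh1, Pcx and Got1. Groups did not overlap in 24 members, 20 with the labelled knockout above and 4 with it below, against 30.2% and 24.3% of all genes tested. With an added requirement of a change of at least 1 log2 unit, 6 members were higher and 0 lower in the PAD4 knockout, where 4.83% and 4.18% of all genes tested were. In the labelled IL-33 knockout 2 members were higher and 1 lower, against 6.18% and 4.4% of all genes tested.

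**Figure D1:**
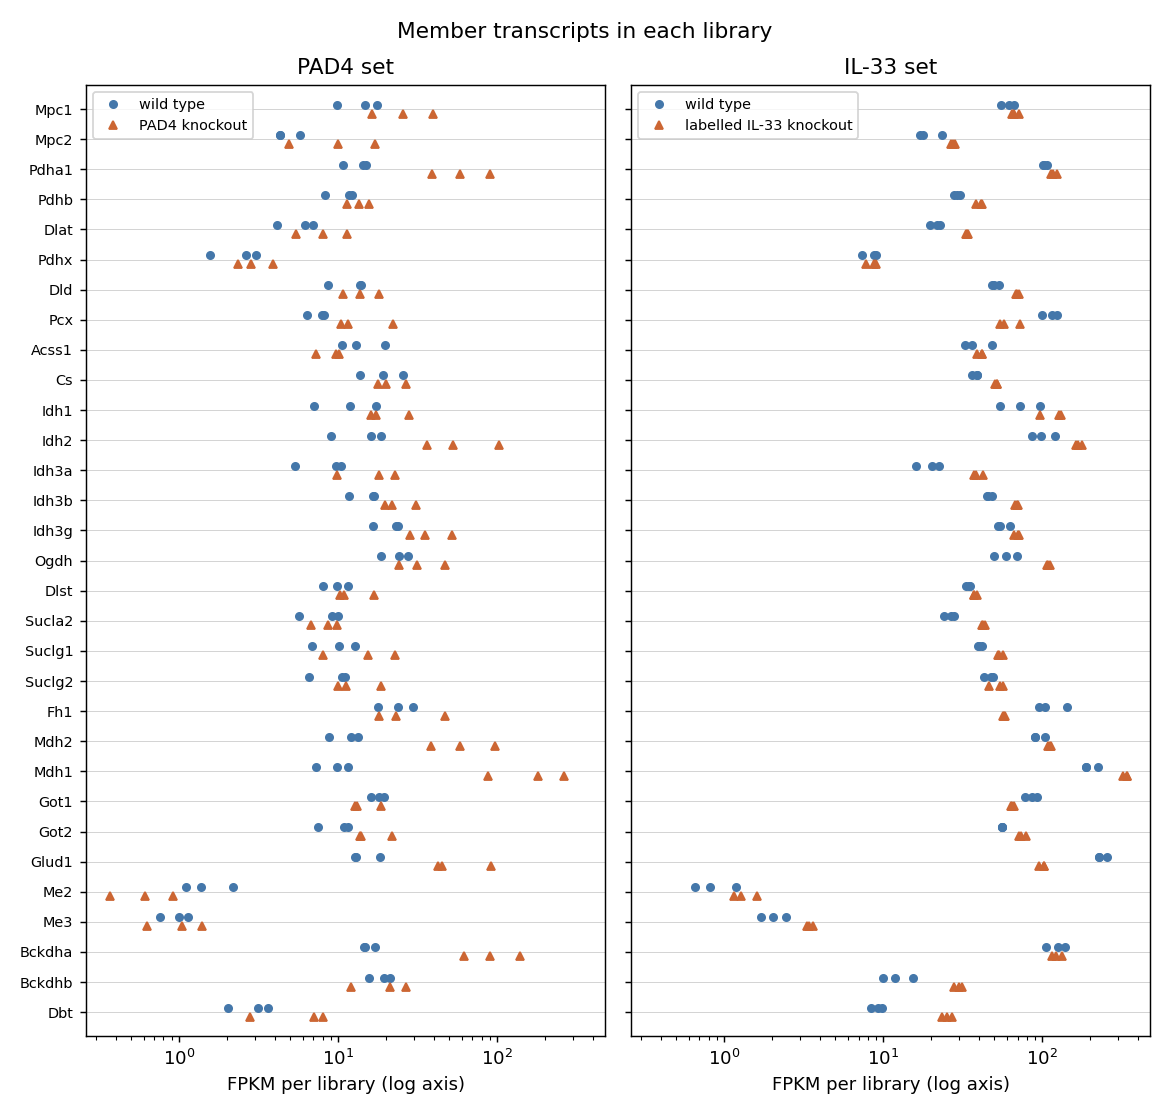
FPKM of each of the 31 members in each library on a log axis, for the PAD4 set (left) and the IL-33 set (right), with wild-type libraries as circles and knockout libraries as triangles. In the PAD4 set the knockout triangles of Mdh1, Mdh2, Pdha1, Idh2, Glud1 and Bckdha stand to the right of the circles with a gap, while in the IL-33 set the labelled knockout triangles of Glud1, Fh1, Pcx and Got1 stand to the left.

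Summed over the members, the 3 PAD4 knockout libraries lay further apart than those of any other group. The FPKM of all 31 members together summed to 279, 412 and 401 in wild type and to 1323, 595 and 844 in the PAD4 knockout. For the 6 members that rose, the sums were 63.4, 90.4 and 83.7 against 786, 309 and 483, so even the lowest knockout library was above every wild-type one. The other 25 members summed to 215, 322 and 318 in wild type and to 537, 286 and 361 in the knockout, and these ranges overlap. The sum over all 31 in the IL-33 set was 1882, 2068 and 1816 in wild type as against 2238, 2185 and 2197 in the labelled knockout.

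Pyruvate entry is the step at which glycolysis meets the cycle, and Pdha1 was the member of its 9 that passed in the PAD4 knockout. Acss1, an acetyl-CoA synthetase that does not act on pyruvate, is counted among these 9. Among all genes tested, 8.89% were higher in that knockout. Pdha1 (ENSMUSG00000031299), the E1 alpha subunit of pyruvate dehydrogenase and the site at which the complex is switched off by phosphorylation, had 10.7, 15.03 and 14.3 FPKM in wild type. In the PAD4 knockout it had 90.1, 39.2 and 58.1 FPKM. The lowest knockout value was thus well above the highest wild-type value, with means of 13.3 ± 2.302 and 62.5 ± 25.7 FPKM (SD, n = 3) and a change of 2.08 ± 0.34 (SE of limma's moderated fit, as below), adjusted p = 0.000496. Pdhb, the E1 beta subunit with which Pdha1 forms a tetramer, had 8.26, 11.8 and 12.2 FPKM in wild type as against 15.6, 11.5 and 13.5 FPKM in the knockout. These overlap, and the change of 0.32 ± 0.28 did not pass (adjusted p = 0.492). Whether the changes of these partner subunits differ from each other was not tested.

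The promoter stretches of this pair, and of the malate dehydrogenase pair described further on, are shown because the first pair holds a gene that passed in the PAD4 knockout and a partner that did not, and both genes of the second pair passed. Each line holds the 120 bases before the annotated start, 5′ to 3′ on the gene's own strand, from RefSeq on GRCm38.p6, with CpG dinucleotides in capitals. The stretches lie at chrX:160138431-160138550 on the minus strand for Pdha1, chr14:8172993-8173112 on the minus strand for Pdhb, chr11:21571935-21572054 on the minus strand for Mdh1 and chr5:135778529-135778648 on the plus strand for Mdh2.
Pdha1: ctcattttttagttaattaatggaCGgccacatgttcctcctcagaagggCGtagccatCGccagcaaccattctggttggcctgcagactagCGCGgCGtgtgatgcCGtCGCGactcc
Pdhb: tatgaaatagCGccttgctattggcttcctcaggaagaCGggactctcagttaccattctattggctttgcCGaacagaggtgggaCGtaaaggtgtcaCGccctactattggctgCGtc
Mdh1: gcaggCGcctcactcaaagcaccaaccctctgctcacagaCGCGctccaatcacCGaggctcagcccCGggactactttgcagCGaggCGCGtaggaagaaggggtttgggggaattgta
Mdh2: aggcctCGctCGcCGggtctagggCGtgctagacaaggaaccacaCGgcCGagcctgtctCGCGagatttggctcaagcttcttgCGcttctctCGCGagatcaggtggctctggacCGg
All 4 stretches carry several CpG dinucleotides, whether or not the gene was higher in the PAD4 knockout.

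The other members of pyruvate entry did not pass in the PAD4 knockout. Dlat, the acetyltransferase core (E2), Pdhx, the protein that tethers E3 to that core, and Dld, the E3 subunit, had changes of 0.44, 0.24 and 0.21 with overlapping groups. The carrier genes Mpc1 and Mpc2 had changes of 0.86 ± 0.34 (adjusted p = 0.0896) and 0.87 ± 0.33 (adjusted p = 0.0757), also with overlap. Pcx, pyruvate carboxylase, which makes oxaloacetate, had 6.39, 8.16 and 7.89 FPKM in wild type as against 22.2, 10.5 and 11.6 FPKM in the knockout. Its groups did not overlap, but the change of 0.83 ± 0.30 did not pass (adjusted p = 0.0649). Acss1, the mitochondrial acetyl-CoA synthetase, had 10.7, 12.9 and 19.8 FPKM in wild type as against 9.73, 10.2 and 7.24 FPKM in the knockout, where all 3 values were below wild type (adjusted p = 0.182).

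Of the 9 entry members, 4 rose and Pcx fell in the labelled IL-33 knockout, where 22.2% of all genes tested were higher and 16.8% lower. Pcx had 124, 99.7 and 115 FPKM in wild type as against 72.4, 54.4 and 57.8 FPKM in the labelled knockout. Every labelled knockout value was below every wild-type value, and the change was -0.87 ± 0.13 (adjusted p = 0.0019). Dlat had 19.8, 22.8 and 21.9 FPKM against 34.1, 32.96 and 33.7 FPKM, a change of 0.62 ± 0.09 (adjusted p = 0.00137). Pdhb and Dld both rose by 0.46 (adjusted p = 0.00425 and 0.00357), and Mpc2 rose by 0.49 (adjusted p = 0.02). The Mpc2 call was lost without wild-type replicate 3 or without any of the labelled knockout replicates (adjusted p = 0.0530 to 0.0705). Pdha1, the largest rise of this group in the PAD4 knockout, had 103, 107 and 100.4 FPKM against 117, 124 and 114 FPKM here. Those groups do not overlap, but the change of 0.20 ± 0.08 did not pass (adjusted p = 0.0828). Mpc1, Pdhx and Acss1 had changes of 0.14, 0.03 and 0.09 and did not pass.

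Values of Mpc1 are uncertain in both sets. An annotated processed pseudogene, Mpc1-ps, matches it over 261 aligned bases at 100% identity, and the tables give that pseudogene more than the gene. Mpc1-ps had 31.6, 51.8 and 33.5 FPKM in the wild type of the PAD4 set, where Mpc1 itself had 9.797, 17.5 and 14.8 FPKM. In the IL-33 set it had 243, 259 and 258 FPKM, where Mpc1 had 61.8, 66.1 and 55.1 FPKM. How the authors' counting divided reads between them is not given in the sources used here.

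The oxidative steps run from citrate synthase to malate dehydrogenase, and the cytosolic Idh1 is counted with them here. Of these 13 members 2, Idh2 and Mdh2, rose in the PAD4 knockout, where 8.89% of all genes tested were higher. Mdh2 (ENSMUSG00000019179), the mitochondrial malate dehydrogenase that closes the cycle, had 8.83, 12.1 and 13.3 FPKM in wild type as against 97.5, 38.5 and 58.3 FPKM in the knockout. With means of 11.4 ± 2.33 and 64.8 ± 30.05 FPKM the change was 2.32 ± 0.35 (adjusted p = 0.000245), and all knockout values were above all wild-type ones. Idh2 (ENSMUSG00000030541), the mitochondrial isocitrate dehydrogenase that makes NADPH, had 9.01, 18.7 and 16.2 FPKM in wild type as against 103, 36.3 and 53.2 FPKM in the knockout. Its change was 1.99 ± 0.38 (adjusted p = 0.00157), again without overlap. Without wild-type replicate 1, in which Idh2 was lowest, the change was 1.69 and did not pass (adjusted p = 0.0520).

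The remaining 11 oxidative members did not pass in the PAD4 knockout, and several of them stood near wild type. Cs, citrate synthase, often used as a measure of mitochondrial content, had 13.8, 19.1 and 25.6 FPKM in wild type as against 26.9, 17.9 and 19.98 FPKM in the knockout (adjusted p = 0.791). Sucla2 and Fh1, a subunit of succinyl-CoA synthetase and the fumarase, had changes of 0.04 and 0.21 with overlapping groups. The NAD-linked isocitrate dehydrogenase, which drives the cycle forward, had changes of 0.88 for its catalytic subunit Idh3a, 0.64 for Idh3b and 0.81 for Idh3g. Idh3b and Idh3g were above wild type in all 3 knockout libraries, yet none of these subunits passed (adjusted p = 0.0716, 0.159 and 0.0895). Idh1, the cytosolic NADP-linked enzyme, Ogdh and Dlst, E1 and E2 of the 2-oxoglutarate dehydrogenase complex, and Suclg1 and Suclg2, further subunits of succinyl-CoA synthetase, had changes between 0.32 and 0.75.

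Of the 13 oxidative members, 9 rose and Fh1 fell in the labelled IL-33 knockout, where 22.2% of all genes tested were higher and 16.8% lower. Idh3a changed most, from 16.1, 22.4 and 20.3 FPKM to 38.2, 37.4 and 42.3 FPKM, a change of 0.98 ± 0.13 (adjusted p = 0.00103). Ogdh went from 49.4, 69.7 and 59.1 FPKM to 111, 107 and 108 FPKM (0.87 ± 0.13, adjusted p = 0.00148), and Sucla2 from 27.7, 26.6 and 24.2 FPKM to 42.3, 41.6 and 43.9 FPKM (0.68 ± 0.09, adjusted p = 0.000882). In these 3 members the groups are apart. Idh2 had 85.998, 120.1 and 98.04 FPKM in wild type as against 168, 177 and 162 FPKM in the labelled knockout (0.74 ± 0.13, adjusted p = 0.00317). Idh3b, Cs, Suclg1 and Idh3g rose by 0.58, 0.43, 0.41 and 0.30. Idh1 rose by 0.68 ± 0.21 (adjusted p = 0.0366), although its groups overlapped, from 54.6, 97.5 and 72.6 FPKM to 127, 97.2 and 131 FPKM. The Idh1 call was lost without replicate 1 or 3 of either group (adjusted p = 0.0821 to 0.116), and that of Idh3g without wild-type replicate 1 or 3 or any labelled knockout replicate (adjusted p = 0.0776 to 0.128).

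Fh1 went against its neighbours in the cycle. It had 104, 144 and 95.6 FPKM in the wild type of the IL-33 set as against 57.8, 58.1 and 56.5 FPKM in the labelled knockout. The labelled knockout values are close together and below every wild-type value, with a change of -0.96 ± 0.15 (adjusted p = 0.00202). Mdh2, which acts on the product of fumarase, had 89.7, 104 and 89.4 FPKM against 114, 109 and 112 FPKM and did not pass (0.24 ± 0.09, adjusted p = 0.0686). Dlst and Suclg2, with changes of 0.14 and 0.17, did not pass either.

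The malate-aspartate shuttle carries reducing equivalents from the cytosol into mitochondria, and its cytosolic malate dehydrogenase gave the largest change of any member. Mdh1 (ENSMUSG00000020321) had 7.28, 11.6 and 9.87 FPKM in wild type as against 265, 88.2 and 180.4 FPKM in the PAD4 knockout. Its lowest knockout library was several times its highest wild-type library, with means of 9.58 ± 2.18 and 178 ± 88.2 FPKM and a change of 3.96 ± 0.37 (adjusted p = 4.82e-06). Mdh1 also rose in the labelled IL-33 knockout, from 189, 225 and 187 FPKM to 339, 322 and 340.4 FPKM (0.74 ± 0.10, adjusted p = 0.00106). Mdh1 and Idh2 were the only members higher in both comparisons by the test, of 6 higher in the PAD4 knockout and 18 in the other. The share of all genes higher in both comparisons was not computed.

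Mdh2, described above with the oxidative steps, is the mitochondrial malate dehydrogenase of the shuttle and also rose in the PAD4 knockout. The aspartate aminotransferases of the shuttle did not pass there. Got1, the cytosolic form, had 16.2, 19.3 and 18.03 FPKM in wild type as against 18.7, 13.2 and 12.8 FPKM in the knockout (-0.26 ± 0.29, adjusted p = 0.594). Got2, the mitochondrial form, had 7.48, 11.6 and 10.97 FPKM as against 21.8, 13.7 and 14.1 FPKM, which do not overlap (0.66 ± 0.29, adjusted p = 0.132). They moved apart in the labelled IL-33 knockout. Got1 fell from 86.8, 93.2 and 77.4 FPKM to 63.8, 66.1 and 64.3 FPKM (-0.40 ± 0.09, adjusted p = 0.0123). Got2 rose from 55.6, 55.5 and 55.6 FPKM to 78.9, 71.4 and 74.001 FPKM (0.42 ± 0.08, adjusted p = 0.0049). The Got1 call was lost without labelled knockout replicate 1 or 3 (adjusted p = 0.0547 and 0.0538).

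Glutamate dehydrogenase, which feeds 2-oxoglutarate into the cycle and releases ammonia, was the member that moved in opposite directions. Glud1 (ENSMUSG00000021794) had 12.8, 18.4 and 12.9 FPKM in the wild type of the PAD4 set as against 91.5, 45.1 and 42.6 FPKM in the PAD4 knockout. There it rose by 1.88 ± 0.34 (adjusted p = 0.00114). In the IL-33 set it had 256, 227 and 226 FPKM in wild type as against 103, 102 and 95.1 FPKM in the labelled knockout, where it fell by 1.23 on the same scale (SE 0.09, adjusted p = 8.53e-05). Neither comparison had overlapping groups.

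The malic enzymes, which turn malate into pyruvate, were the lowest members in these kidneys. Me2, the mitochondrial NAD-linked form, had 1.11, 1.38 and 2.17 FPKM in wild type as against 0.366, 0.9205 and 0.615 FPKM in the PAD4 knockout, all below wild type. It was the only member that passed as lower there (-0.64 ± 0.20, adjusted p = 0.0363), although Acss1 did so too under other scalings given below. The call was lost without wild-type replicate 1 or 3 (adjusted p = 0.0583 and 0.147) and without knockout replicate 1 or 3 (adjusted p = 0.167 and 0.0804). Me2 had 0.658, 0.814 and 1.196 FPKM against 1.15, 1.28 and 1.605 FPKM in the IL-33 set and did not pass (adjusted p = 0.124). Me3, the mitochondrial NADP-linked form, had a change of 0.02 in the PAD4 knockout. It rose in the labelled IL-33 knockout, from 1.701, 2.45 and 2.02 FPKM to 3.34, 3.64 and 3.42 FPKM (0.55 ± 0.13, adjusted p = 0.0113), a call lost without labelled knockout replicate 2 (adjusted p = 0.0537).

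The branched-chain 2-oxoacid dehydrogenase complex commits leucine, isoleucine and valine to breakdown. Its E1 alpha subunit passed in the PAD4 knockout, and its E1 beta and E2 subunits passed in the labelled IL-33 knockout. Bckdha (ENSMUSG00000060376), its E1 alpha subunit, had 14.8, 14.6 and 17.1 FPKM in wild type as against 139, 61.9 and 90.4 FPKM in the PAD4 knockout. The means were 15.5 ± 1.39 and 96.999 ± 38.9 FPKM, and the change was 2.50 ± 0.34 (adjusted p = 0.000128). Bckdhb, the E1 beta subunit, had 15.8, 21.2 and 19.5 FPKM against 26.8, 12.01 and 21.2 FPKM, and Dbt, the E2 core, at 2.03, 3.12 and 3.62 FPKM against 8.01, 2.79 and 7.07 FPKM. Both overlapped between the groups and did not pass (adjusted p = 0.973 and 0.0920). Without knockout replicate 2, Dbt passed, with a change of 1.14 (adjusted p = 0.00119).

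In the IL-33 set Bckdha had 125, 139 and 105 FPKM in wild type as against 121, 133 and 116 FPKM in the labelled knockout, a change of 0.01 ± 0.12 (adjusted p = 0.947). Bckdhb rose from 9.97, 15.4 and 11.9 FPKM to 31.1, 30.1 and 27.9 FPKM (1.21 ± 0.15, adjusted p = 0.000736). Dbt rose from 8.41, 9.85 and 9.26 FPKM to 25.1, 27.1 and 23.4 FPKM, the largest rise of a member in this comparison (1.37 ± 0.10, adjusted p = 9.41e-05). Bckdhb and Dbt were the members that rose by at least 1 log2 unit there. The difference of its changes between the comparisons did not pass for Dbt (-0.61 ± 0.38, adjusted p = 0.320).

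**Figure D2:**
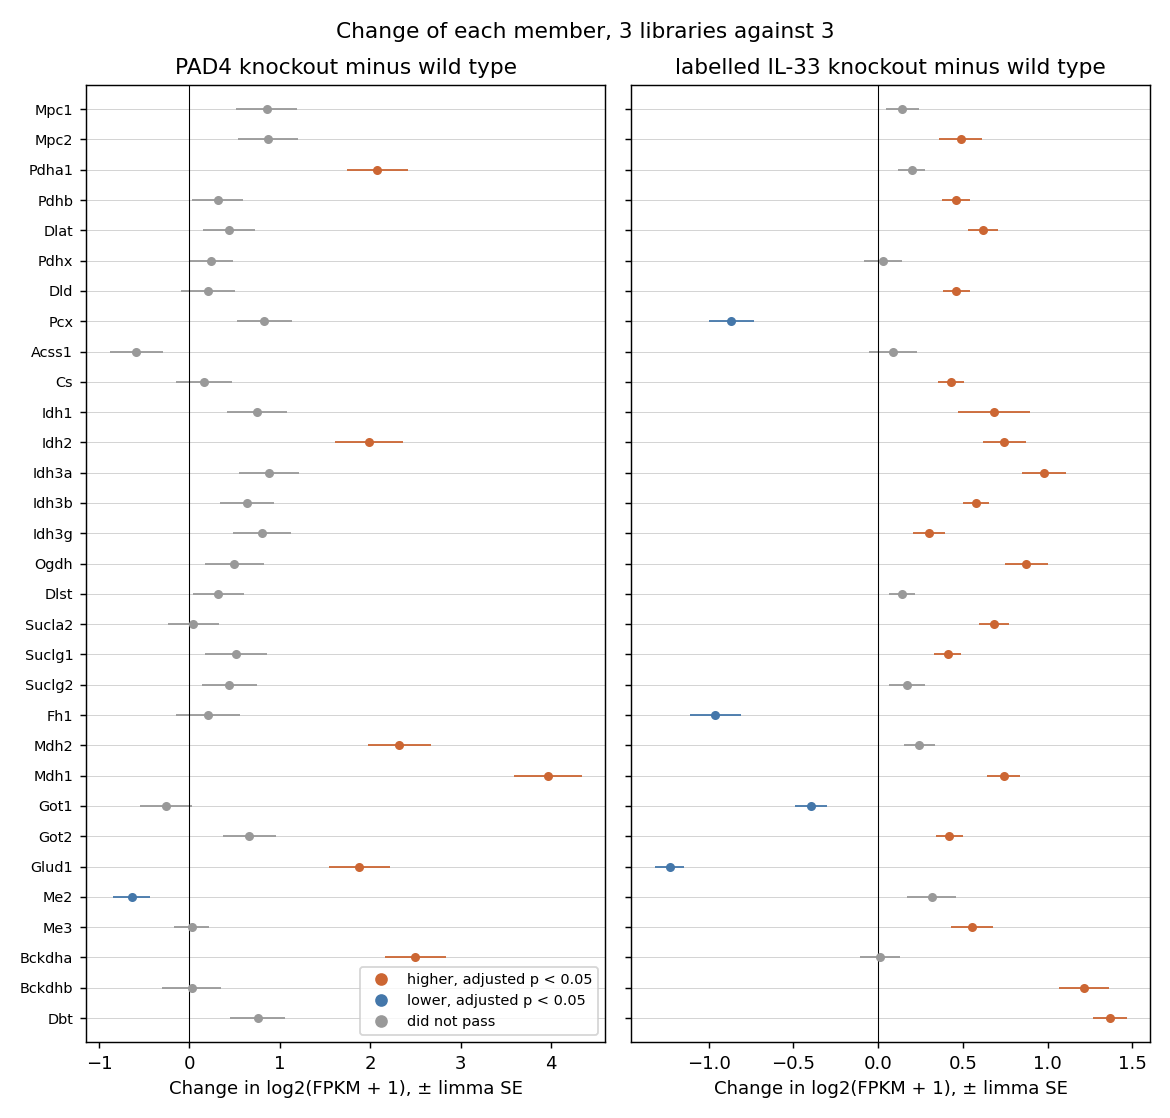
Change of each member in log2(FPKM + 1), knockout minus wild type, with limma's standard error as the bar, for the PAD4 knockout (left) and the labelled IL-33 knockout (right), whose horizontal axes differ in range. On the left 6 points stand between 1.88 and 3.96 and the others lie between -0.64 and 0.88, while on the right the highest point is Dbt at 1.37 and Glud1, Fh1, Pcx and Got1 lie below 0.

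A contrast of the 4 group means over all 12 libraries tested whether the changes themselves differed. The change in the PAD4 knockout minus that in the labelled IL-33 knockout differed from 0 in 8 of 31 members, 6 with a positive difference and 2 with a negative one. Over the 13010 genes tested in both tables, 6.23% differed in the positive direction and 6.18% in the negative direction. Mdh1 differed by 3.22 ± 0.44 (adjusted p = 0.000592) and Glud1 by 3.11 ± 0.37 (adjusted p = 0.000235). Bckdha differed by 2.48 ± 0.35, Mdh2 by 2.08 ± 0.38 and Pdha1 by 1.88 ± 0.35 (adjusted p = 0.000677, 0.00311 and 0.00344). For Pcx, which passed only in the labelled IL-33 knockout, the difference was 1.70 ± 0.34 (adjusted p = 0.00573). The difference was -0.95 ± 0.25 for Me2 and -1.19 ± 0.35 for Bckdhb (adjusted p = 0.0241 and 0.0398), and these were lost with some libraries left out, at an adjusted p of up to 0.0687 and 0.0937. For Idh2, the remaining member that rose in the PAD4 knockout, the difference of 1.24 ± 0.46 did not pass (adjusted p = 0.0963). Each comparison has its own wild-type libraries, but set, batch label and table go together, so a difference between the knockouts and a difference between the sets cannot be told apart.

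Ratios of partner genes within a library do not depend on how libraries were scaled, and they are given as descriptions with no test. Of 9 pairs of isozymes or partner subunits, the knockout values lay outside the wild-type values in 7 pairs in the PAD4 set and in 8 in the IL-33 set. Over all pairs of tested genes with values above 0, 47.1% and 56.7% did so. Bckdha to Bckdhb was 0.939, 0.6895 and 0.875 in the wild type of the PAD4 set and 5.19, 5.15 and 4.25 in the PAD4 knockout, but 12.5, 9.03 and 8.82 in the wild type of the IL-33 set and 3.895, 4.41 and 4.16 in the labelled knockout. The direction was thus opposite in the 2 sets. Pdha1 to Pdhb likewise went from 1.298, 1.28 and 1.17 to 5.78, 3.42 and 4.299 in the PAD4 set and from 3.39, 3.64 and 3.61 to 3.06, 2.99 and 2.77 in the IL-33 set.

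Some isozyme ratios lay on the same side of wild type in both sets. Mdh1 to Mdh2, cytosolic over mitochondrial, was 0.824, 0.961 and 0.739 in wild type as against 2.71, 2.29 and 3.09 in the PAD4 knockout. In the IL-33 set it was 2.103, 2.15 and 2.09 in wild type as against 2.98, 2.96 and 3.03 in the labelled knockout. Got1 to Got2 was lower in every knockout library, at 2.17, 1.67 and 1.64 against 0.859, 0.964 and 0.909 in the PAD4 set and at 1.56, 1.68 and 1.39 against 0.809, 0.926 and 0.869 in the IL-33 set. Idh1 to Idh2 went from 0.7798, 0.926 and 0.736 to 0.271, 0.475 and 0.302 in the PAD4 set and overlapped in the IL-33 set. Suclg2 to Sucla2, the GTP-forming over the ATP-forming subunit of succinyl-CoA synthetase, was higher in the PAD4 knockout (1.899, 1.47 and 1.28 against 1.17, 1.101 and 1.15) and lower in the labelled IL-33 knockout (1.35, 1.11 and 1.24 against 1.76, 1.79 and 1.78).

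**Figure D3:**
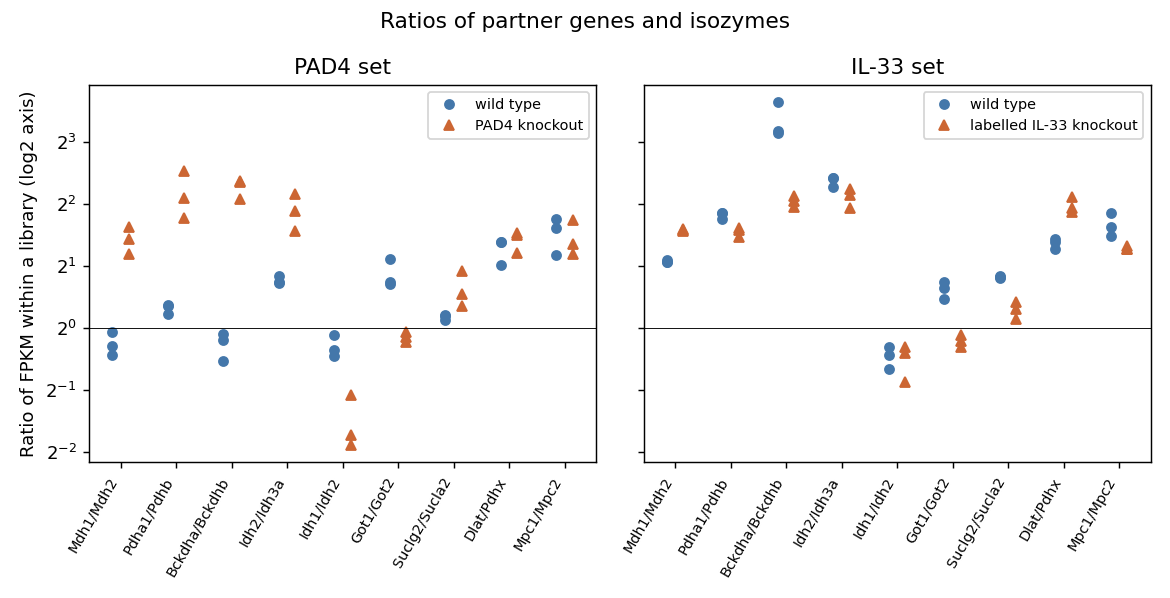
Ratio of FPKM of partner genes within each library on a log2 axis, with wild-type libraries as circles and knockout libraries as triangles, for the PAD4 set (left) and the IL-33 set (right). Bckdha/Bckdhb and Pdha1/Pdhb lie higher in the PAD4 knockout and lower in the labelled IL-33 knockout than in the wild type of the same set, and Got1/Got2 lies lower in both.

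The members that rose in the PAD4 knockout were among those at a high level in the wild type of the other set. Across the 31 members, the change in the PAD4 knockout and the mean wild-type FPKM in the IL-33 set had a Spearman rho of 0.567 and a Pearson r, on log2 values, of 0.607. Over the 13010 genes tested in both tables these were 0.0781 and 0.14. With the wild-type level in the PAD4 set itself, the members' rho was 0.0298. The members' changes in the 2 comparisons had a rho of 0.0379, where all genes had 0.3601. With the length of the longest annotated transcript, the members' rho was -0.226 for the PAD4 knockout and -0.0847 for the labelled IL-33 knockout. All 12776 genes with such a length had -0.123 and 0.0823. Genes are not independent replicates, and the members share the same 12 libraries. Pcx and Fh1, at 113 and 115 FPKM on average in that wild type, were above Mdh2, Idh2 and Pdha1, at 94.5, 101 and 103 FPKM, and did not pass in the PAD4 knockout.

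**Figure D4:**
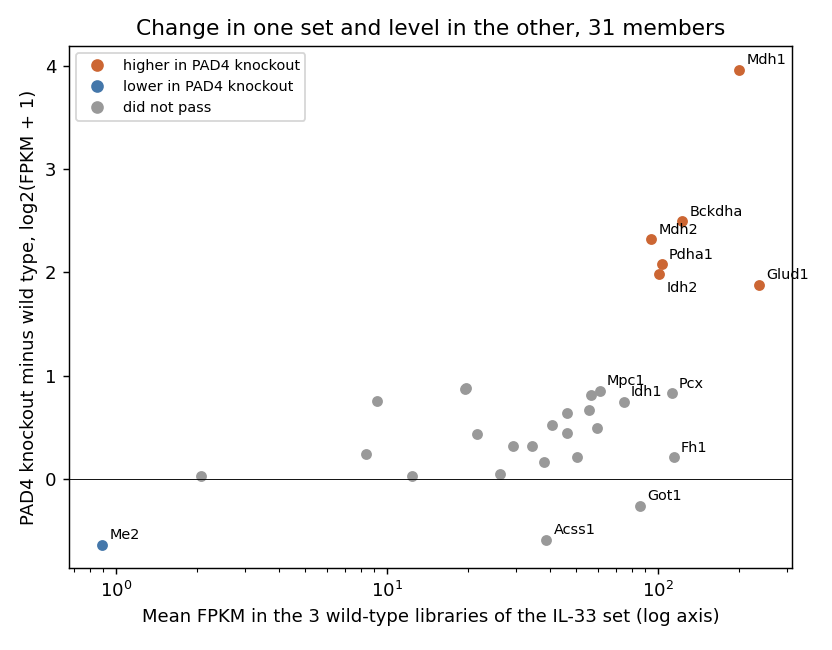
Change in the PAD4 knockout, in log2(FPKM + 1), against the mean FPKM of the same member in the 3 wild-type libraries of the IL-33 set on a log axis, for the 31 members. The 6 members that rose are at the right edge, between 94.5 and 236 FPKM, together with Pcx and Fh1, which did not pass.

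The promoters of the members were compared with those of all genes for base composition and for motifs of factors known to act on mitochondrial genes. RefSeq promoter entries on GRCm38.p6, of 250 bases before to 50 bases after the start, matched 28 of the 31 members and held 37 promoters of theirs. The estrogen-related receptor motif TCAAGGTCA, searched on both strands, was in the promoters of 0 of 28 members and of 0.466% of 27025 genes. The NRF1 motif, searched likewise, was in those of 2 members, Dld and Sucla2 (7.14%), against 5.19% of genes. The motif CCGGAAGTG of GABP and other ETS factors was in that of 1 member, Dlst (3.57%), against 2.25%. The Sucla2 match is shown as an example, in the 60 bases before the start at chr14:73552726-73552785 on the plus strand, with the matched letters in capitals.
Sucla2: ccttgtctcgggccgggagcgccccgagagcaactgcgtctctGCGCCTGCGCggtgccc
No member held more than 1 of these motifs. A match describes letters only, and the 6 members that rose in the PAD4 knockout held none of these motifs in their entries. In the 250 bases before the start, the members had a median GC content of 61.4% and a median of 16 CpG dinucleotides, against 52.4% and 6 over all genes. The 6 members that rose had 62.4% and 17, and the other 22 members had 60.8% and 15. TATAAA within 50 bases of the start was found in 0 of 28 members and in 3.15% of all genes.

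Near-identical copies in the genome were found for some members, among them Glud1, which passed in both comparisons. A sequence of at least 90% identity over at least 250 aligned bases had a row in a table for 6 members, Cs, Glud1, Got2, Mpc1, Pdhb and Suclg2. Apart from Mpc1-ps, the highest copy was at 3.34 FPKM in the PAD4 set and at 12.4 FPKM in the IL-33 set. No such copy was found for Mdh1, Mdh2, Pdha1, Idh2 or Bckdha. Several members overlap a gene on the opposite strand, among them Mdh1 with Wdpcp, Pdha1 with Map3k15, Fh1 with Kmo, Pcx with Lrfn4 and Bckdha with B3gnt8. The libraries are strand-specific, but whether the counting used strand is not given in the sources used here.

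Succinate dehydrogenase, which is not among the members, links the cycle to the respiratory chain. Of 8 genes tested for its subunits and assembly factors, 3 were higher and 0 lower in the PAD4 knockout, with a median change of 0.65. In the labelled IL-33 knockout 5 were higher and 0 lower, with a median of 0.44. Among all genes tested, 8.89% were higher and 8.79% lower in the PAD4 knockout, and 22.2% and 16.8% in the labelled IL-33 knockout. The counts of the lists that follow stand against the same shares. Sdhb, the iron-sulfur subunit of succinate dehydrogenase, had 11.4, 20.3 and 16.3 FPKM in wild type as against 153, 57.1 and 105 FPKM in the PAD4 knockout (2.56 ± 0.37, adjusted p = 0.000183). Sdhd, a membrane anchor, rose by 1.42. Sdha, the flavoprotein subunit that pairs with Sdhb, had a change of -0.08 there (adjusted p = 0.908). Sdha rose in the labelled IL-33 knockout, from 105, 108 and 105 FPKM to 161, 162 and 159 FPKM (0.60 ± 0.07, adjusted p = 0.000759), and Sdhd and Sdhb rose by 0.61 and 0.53.

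The kinases and phosphatases that switch the dehydrogenase complexes showed the largest single change near the members. Pdk4, a pyruvate dehydrogenase kinase that is induced by fasting and shuts the complex by phosphorylating Pdha1, had 453, 341 and 359 FPKM in the wild type of the IL-33 set. In the labelled knockout it had 3.40, 3.82 and 5.33 FPKM, a change of -6.22 ± 0.16 (adjusted p = 1.29e-06). In the PAD4 set it had 34.8, 29.8 and 33.1 FPKM in wild type as against 12.4, 13.8 and 4.74 FPKM in the knockout (-1.68 ± 0.34, adjusted p = 0.00253). Pdk4 was thus below wild type in every knockout library of both sets. Of this list, 0 were higher and 1 lower of 8 tested in the PAD4 knockout, and 6 were higher and 1 lower of 9 in the labelled IL-33 knockout, among them Pdp2, a pyruvate dehydrogenase phosphatase (1.23), and the kinase Pdk3 (0.89).

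Carriers of cycle intermediates were higher in 2 and lower in 1 of 8 tested in the PAD4 knockout, and higher in 4 and lower in 2 of 8 in the labelled IL-33 knockout. Slc25a22, a mitochondrial glutamate carrier, had 43.5, 48.7 and 28.3 FPKM in the wild type of the IL-33 set as against 3.33, 2.95 and 3.46 FPKM in the labelled knockout (-3.24 ± 0.19, adjusted p = 3.94e-05). It fell in the PAD4 knockout too, from 9.74, 6.32 and 12.7 FPKM to 4.28, 4.82 and 2.87 FPKM (-1.06 ± 0.28, adjusted p = 0.0139). Slc25a11, the 2-oxoglutarate carrier of the malate-aspartate shuttle, rose by 1.26 in the labelled IL-33 knockout. Slc25a21, the oxodicarboxylate carrier, rose by 0.71 in the PAD4 knockout and by 1.00 in the labelled IL-33 knockout, and Slc25a10, the dicarboxylate carrier, rose by 1.03 in the PAD4 knockout and fell by 0.57 in the labelled IL-33 knockout (adjusted p = 0.00938).

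Lipoate is the cofactor of the E2 subunits, and of 7 genes of its synthesis and transfer none passed in the PAD4 knockout by limma, with 1 at an unadjusted p under 0.05 (Gcsh). Gcsh, a lipoyl carrier protein of glycine cleavage, rose by 1.06 and Lipt2, a lipoyl transferase, fell by 1.04, in the labelled IL-33 knockout. Of 20 cytosolic and linked enzymes, 8 were higher and 0 lower in the PAD4 knockout, and 12 were higher and 2 lower in the labelled IL-33 knockout. Ldha and Ldhb, the lactate dehydrogenase subunits, rose by 2.41 and 2.48 in the PAD4 knockout, and Acat1, which works in ketone body and isoleucine breakdown, by 2.41. In the labelled IL-33 knockout Acss2, the cytosolic acetyl-CoA synthetase, rose by 2.24 and Oxct1, which starts the use of ketone bodies, by 1.44.

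Nnt, the mitochondrial transhydrogenase that makes NADPH from NADH, belongs to the same list. In the IL-33 set it had 4.42, 0.261 and 3.35 FPKM in wild type as against 38.8, 39.04 and 36.02 FPKM in the labelled knockout (3.65 ± 0.48, adjusted p = 0.00103). In the PAD4 set it had 1.03, 0.968 and 2.66 FPKM in wild type as against 0.124, 3.67 and 5.66 FPKM in the knockout, which overlap (adjusted p = 0.562). As background, the C57BL/6J substrain carries a deletion within Nnt that other C57BL/6 substrains lack. The labels do not name the substrain, so the deleted gene and the strain background cannot be told apart for these 2 groups.

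Markers of cell types also changed in both comparisons, some in the direction of most members and some against it. Summed FPKM of 18 proximal tubule markers was 5232, 5025 and 8240 in the wild type of the PAD4 set and 25648, 10030 and 16227 in the PAD4 knockout, with 14 higher and 0 lower of 17 tested. The order of the knockout libraries on that sum, replicate 1 highest and replicate 2 lowest, was also their order in the sum over the members. Both sums also ordered the wild-type libraries of the IL-33 set alike. They did not do so for the wild type of the PAD4 set or for the labelled IL-33 knockout. Smooth muscle markers fell in 6 of 7 tested, fibroblast markers in 6 of 6, neutrophil markers in 4 of 6, macrophage markers in 4 of 7, erythroid markers in 4 of 5, colon markers in 14 of 15 and lung markers in 6 of 7. Thick ascending limb markers rose in 3 of 7. Among all genes tested, 8.89% were higher and 8.79% lower in the PAD4 knockout, and 22.2% and 16.8% in the labelled IL-33 knockout. The proximal tubule sum in the IL-33 set was 16019, 18433 and 13357 in wild type as against 14675, 13571 and 11718 in the labelled knockout, although 13 of 18 markers were higher and 2 lower. There, thick ascending limb markers were higher in 6 of 7, macrophage markers in 6 of 7 with 1 lower, fibroblast markers in 4 of 6 and erythroid markers in 5 of 5. The calls of macrophage, fibroblast and erythroid markers were thus mostly lower in the PAD4 knockout and mostly higher in the labelled IL-33 knockout. How far these shifts enter the changes of the 31 genes was not tested.

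The number of members called in the PAD4 knockout moved with the filter, with the scaling and with knockout replicate 2. With no filter on level, 0 of 31 members and 0 of all 32199 genes passed by limma, while 11 members had an unadjusted p under 0.05, and the adjusted p of the 6 members that rose lay between 0.0707 and 0.119. Without knockout replicate 2, 14 members passed, 13 higher and 1 lower, where 12.7% of all genes tested were higher. The 6 members that rose passed without any single knockout library.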

How the data were processed

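The authors deposited FPKM values for 12 libraries, as 1 table a set with genes under Ensembl identifiers, per the file headers. RNA was enriched for poly(A) and libraries keep the strand, per the labels. Tools in the submitters' processing notes are HISAT2, StringTie, edgeR, DESeq2, FastQC and cutadapt, without versions or roles, and the build is not given in the sources used here. Symbols were matched for 30212 of 32199 and 29690 of 31719 genes. The wild-type columns of the IL-33 set give the injury model and a number without a genotype, and were taken as that set's wild-type libraries. There were 0 columns of no sample. No libraries were identical, and depth is unknown.

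Values were analysed as log2(FPKM + 1), which understates changes of low genes, with limma 3.58.1 in R 4.3.3 (lmFit, eBayes with trend). Genes needed a mean FPKM of at least 0.5 over the 6 libraries of a table. P-values are two-sided and adjusted by Benjamini-Hochberg over all genes tested, at a threshold of 0.05. An exact permutation test of 3 against 3 cannot go below 0.1. Standard errors beside changes are limma's moderated ones. Copies of members were searched with blastn 2.17.0 in GENCODE mouse transcripts on GRCm38. The analysis was tested on simulated data. All 31 members, Padi4 and Il33 are named. Of each pathway list at most 3 genes in each comparison are named, by smallest adjusted p among those that passed. Partner genes (Sdha, Gcsh, Mpc1-ps) were named after their values were seen. A gene of the pathway lists is not reported here. The members, lists, tests and alternatives (pseudocounts, filters, scalings, no trend, replicate block, each library left out, an added 2-fold threshold) were chosen with earlier results of these data known.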

Additional observations from a re-analysis of the deposited data

Results flagged for a closer look

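For 8 members the change in the PAD4 knockout and the change in the labelled IL-33 knockout differed by limma's test of the difference itself, at an adjusted p under 0.05. The difference, PAD4 knockout minus labelled IL-33 knockout on the log2(FPKM + 1) scale, was 3.22 for Mdh1, 3.11 for Glud1, 2.48 for Bckdha, 2.08 for Mdh2, 1.88 for Pdha1 and 1.70 for Pcx. It was -0.95 for Me2 and -1.19 for Bckdhb. Mdh1, Glud1, Bckdha, Mdh2, Pdha1 and Pcx differed in all 22 settings run, Me2 in 15 of 21 and Bckdhb in 12 of 22. Bckdha and Bckdhb, which encode the subunits of 1 enzyme, differed in opposite directions. Over the 13010 genes tested in both tables, 12.4% differed in either direction.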

How the results depend on the processing

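In the PAD4 knockout 7 members passed (6 higher, 1 lower). With no filter 0 passed, and with median-of-ratios scaling and with quantile normalization 12 passed each (10 higher, 2 lower), while the share of all genes tested that was higher went from 8.89% to 12.7% and 13.7%. Leaving out each library gave 5 to 14, with 2.49% to 12.7% of all genes higher. In the labelled IL-33 knockout 22 passed (18 higher, 4 lower), 18 to 23 with a library left out, and 3 with an added 2-fold threshold (2 higher, 1 lower). The members' median change there was 0.42, and 0.35 with median-of-ratios scaling. With a library left out the median ran from 0.25 to 0.76 in the PAD4 knockout and from 0.38 to 0.44 in the labelled IL-33 knockout. The count of members whose changes differed, 8, ran from 6 to 11 over all settings and from 6 to 10 with a library left out. Other settings moved no count by over 1.5 times. The causes were not tested.

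The replicate numbers were not treated as pairs. Deviations of same-numbered libraries correlated at -0.0159, -0.113 and -0.146 in the PAD4 set and at -0.0144, 0.134 and -0.0017 in the IL-33 set. Those of libraries with different numbers ran from -0.129 to 0.232 and from -0.125 to 0.130. So few values cannot decide whether the samples were paired. With the replicate block, 6 members passed in the PAD4 knockout, where Me2 was lost (adjusted p = 0.0560), 21 in the labelled IL-33 knockout, where Idh3g was lost (adjusted p = 0.0550), and 8 in the difference.

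Signs turned only in members that had not passed. In the PAD4 knockout Bckdhb was at -0.0113 with median-of-ratios scaling, at -0.0046 with mitochondrially encoded genes left out and at -0.185 with quantile normalization. Quantile normalization also turned Cs (-0.0396), Sucla2 (-0.0438) and Fh1 (-0.0926). With a library left out, the PAD4 changes ran from -0.211 to 0.335 for Bckdhb, from -0.054 to 0.368 for Cs, from -0.00076 to 0.380 for Dld, from -0.181 to 0.485 for Fh1, from -0.106 to 0.172 for Me3 and from -0.180 to 0.182 for Sucla2. In the labelled IL-33 knockout, Pdhx was at -0.0321 with median-of-ratios scaling and at -0.0031 with quantile normalization, and Bckdha at -0.0546 with median-of-ratios scaling. With a library left out, the changes there ran from -0.0266 to 0.245 for Acss1, from -0.0961 to 0.104 for Bckdha and from -0.0538 to 0.0821 for Pdhx.

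Single calls near the threshold also moved. In the labelled IL-33 knockout Mpc2, Idh1 and Idh3g were lost with no filter (adjusted p = 0.0506, 0.106 and 0.0587) and with several libraries left out. In the PAD4 knockout without replicate 2, Mpc1, Mpc2, Pcx, Idh3a, Idh3g, Suclg1 and Dbt passed as higher. Acss1 passed as lower in the PAD4 knockout by limma with median-of-ratios scaling and with quantile normalization (adjusted p = 0.0336 and 0.0321). Depth cannot be read from FPKM, so members at about 1 FPKM, Me2 and Me3, carry a counting error that is not known.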
